A study of Mus musculus with 6 samples.

Results

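Dual-specificity MAP kinase phosphatases remove phosphate from both the threonine and the tyrosine of the activation loop of MAP kinases, and so switch off ERK, JNK and p38. Several of their genes are induced by the kinases they act on, which makes them feedback inhibitors, and in T cells they limit signalling from the antigen receptor. The 6 genes described here, Dusp1, Dusp2, Dusp4, Dusp5, Dusp6 and Dusp10, were chosen by their Ensembl gene IDs from the 22322 genes of the deposited table of ribosome footprint counts. All 6 had counts in every library. Symbols were assigned through those IDs, which the table lists without names.

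The comparison was between 3 libraries of activated and 3 libraries of resting CD4+ T cells from female C57BL/6J mice aged 6 weeks. Both groups are of 1 strain with no genetic change named in the labels, and both are labelled untreated and 0 h, that is, without the transcription and translation inhibitors used elsewhere in the study. Activated cells had been given beads bearing antibodies against CD3 and CD28, a signal through the antigen receptor and its costimulator. The labels do not give the length of that stimulation. CD4+ cells had been enriched from lymph nodes and spleen by depleting other cells, so cells that the depletion missed can remain. Replicates are numbered 2, 3 and 4 in both groups. The labels do not tie them to separate animals, and the p-values given here therefore cover only how far these libraries vary, which may be technical. The defining markers of the cell type could not be checked, because 0 of the 22322 IDs could be paired with a symbol in the reference table.

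Coding sequence (CDS) counts summed to between 511483 and 1074656 in activated libraries and between 437200 and 594508 in resting libraries. Activated replicate 2 stood apart. Per 100 CDS counts it had 20.02 in the 5' UTR over all genes, against 14.3 to 15.1 in the other activated and 13.97 to 15.5 in the resting libraries, and the lowest depth of its group. Of its records, 79.6% did not align uniquely, against 73.2% and 65.8% in activated replicates 3 and 4 and 75.2% to 76.3% in resting libraries. The CDS changes of Dusp1, Dusp2, Dusp5 and Dusp10 and the 5' UTR changes of Dusp1 and Dusp10 are given also without Activated replicate 2. Its part in these and other results was not tested further. In bulk libraries, fewer cells with a transcript and less of it per cell cannot be told apart, nor can more mRNA and more ribosomes per mRNA without matched RNA counts.

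Of the 6 genes, 5 rose in activated cells and 1 fell. Dusp2, Dusp5 and Dusp6 rose by 8.10 to 11.0 times, Dusp4 by 3.12 times and Dusp1 by 2.49 times, while Dusp10 was 2.70 times higher in resting cells. Over all 6775 genes tested, 45.5% were called, 24.1% higher and 21.4% lower, at an adjusted p under 0.05 in edgeR's quasi-likelihood test, and 4.22% were called with a rise of at least 4-fold. The groups did not overlap for any of the 6: each activated library was above each resting library for the 5 genes that rose, as in 28.1% of genes tested, and below for Dusp10, as in 26.7%. The median log2 change was 2.33 over the 6 genes and -0.04 over all genes tested. Values are CDS footprints as CPM (counts scaled to a common library size) with library sizes scaled with TMM factors, which set the typical gene near no change. With library totals in place of TMM factors the median gene shifted to -0.38, and none of the 6 genes changed direction or lost its call. Both scalings give changes relative to the rest of a library, so changes in footprints per cell cannot be read from them.

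**Figure D1:**
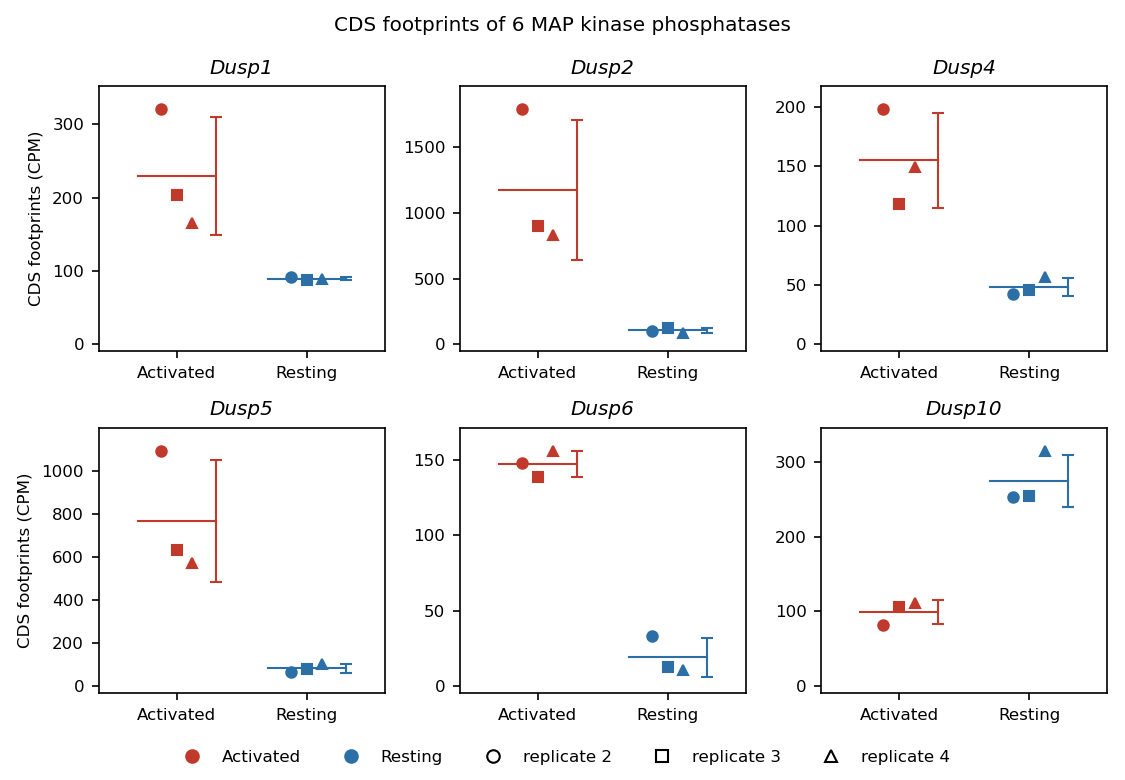
CDS footprints in CPM (vertical axes, each from 0 with its own scale) for each gene in the activated and resting libraries; symbols give the replicate number, horizontal lines the mean and bars 1 SD (n = 3). The activated libraries lie above the resting libraries for Dusp1, Dusp2, Dusp4, Dusp5 and Dusp6 and below them for Dusp10, with Activated replicate 2 highest for Dusp1, Dusp2, Dusp4 and Dusp5.

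Of the phosphatases that act in the nucleus, Dusp2 (PAC-1, known from activated blood cells; ENSMUSG00000027368.6, chromosome 2, chr2:127336159-127338377 in GRCm38.p6) changed furthest. It had 785, 716 and 778 CDS counts in activated replicates 2, 3 and 4, against 50, 78 and 55 in resting replicates 2, 3 and 4. These were 1784, 900.1 and 828.2 CPM in activated and 105.1, 126.5 and 84.5 CPM in resting libraries. The groups were far apart, and Activated replicate 2 was well above the other activated libraries. Dusp2 averaged 1171 ± 532 CPM in activated and 105.4 ± 21.0 CPM in resting cells (SD, n = 3). The fitted change was 3.46 on the log2 scale (SE 0.28), with an edgeR adjusted p of 7.07e-08. Only 0.915% of genes tested had a higher log2 change. Without Activated replicate 2 the change was 3.06 (edgeR adjusted p = 1.56e-10).

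Dusp5 is a nuclear phosphatase selective for ERK, itself encoded by an ERK-induced gene (ENSMUSG00000034765.6, chr19:53529145-53541809). It had 480, 505 and 540 CDS counts in activated replicates 2, 3 and 4, against 31, 50 and 67 in resting replicates 2, 3 and 4. The CPM values were 1091, 634.8 and 574.8 in activated and 65.2, 81.1 and 102.98 in resting libraries. As for Dusp2, the groups did not overlap and Activated replicate 2 was the highest library. The log2 change was 3.17 (SE 0.25), with an edgeR adjusted p of 6.27e-08, and 2.87 without Activated replicate 2 (edgeR adjusted p = 6.83e-10).

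Dusp4 (MKP-2) is a nuclear phosphatase that acts on ERK and JNK in cell studies (ENSMUSG00000031530.6, chr8:34807610-34819894). It had 87, 94 and 140 CDS counts in activated replicates 2, 3 and 4, against 20, 28 and 37 in resting replicates 2, 3 and 4, or 197.7, 118.2 and 149.0 CPM against 42.1, 45.4 and 56.9 CPM. The lowest activated library was above the highest resting library. The log2 change was 1.64 (SE 0.23, edgeR adjusted p = 2.60e-05).

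Dusp1 (MKP-1), a nuclear phosphatase for p38, JNK and ERK that is induced early by many stimuli, rose least (ENSMUSG00000024190.6, chr17:26505591-26508472). It had 141, 162 and 155 CDS counts in activated replicates 2, 3 and 4, against 44, 54 and 58 in resting replicates 2, 3 and 4. In CPM, activated libraries held 320.4, 203.6 and 165.0, and resting libraries 92.5, 87.6 and 89.1. Resting libraries were close together, at 89.8 ± 2.52 CPM, and activated libraries were spread, at 229.7 ± 80.9 CPM (SD, n = 3). The log2 change was 1.32 (SE 0.23), with an edgeR adjusted p of 0.000173, and 1.06 without Activated replicate 2 (edgeR adjusted p = 7.23e-05).

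Dusp6 (MKP-3) is the ERK-selective phosphatase of the cytoplasm (ENSMUSG00000019960.7, chr10:99263231-99267489). It had few counts in resting cells: 65, 110 and 146 CDS counts in activated replicates 2, 3 and 4, against 16, 8 and 7 in resting replicates 2, 3 and 4. Unlike Dusp2 and Dusp5, its activated libraries were close together, at 147.7, 138.3 and 155.4 CPM, and its resting libraries were spread, at 33.6, 12.98 and 10.8 CPM. The log2 change was 3.02 (SE 0.30, edgeR adjusted p = 5.71e-07). Its size depended on Resting replicate 2, without which it was 3.62 (edgeR adjusted p = 6.04e-07), or 12.3 times against 8.10 times.

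Dusp10 (MKP-5) prefers JNK and p38 over ERK and was the member that fell (ENSMUSG00000039384.8, chr1:184034381-184075636). It had 36, 84 and 105 CDS counts in activated replicates 2, 3 and 4, against 120, 157 and 204 in resting replicates 2, 3 and 4. These were 81.8, 105.6 and 111.8 CPM in activated and 252.3, 254.7 and 313.6 CPM in resting libraries. Every activated library was below every resting library. The log2 change was -1.43 (SE 0.17), with an edgeR adjusted p of 5.54e-06, and 3.90% of genes tested had a lower one.

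**Figure D2:**
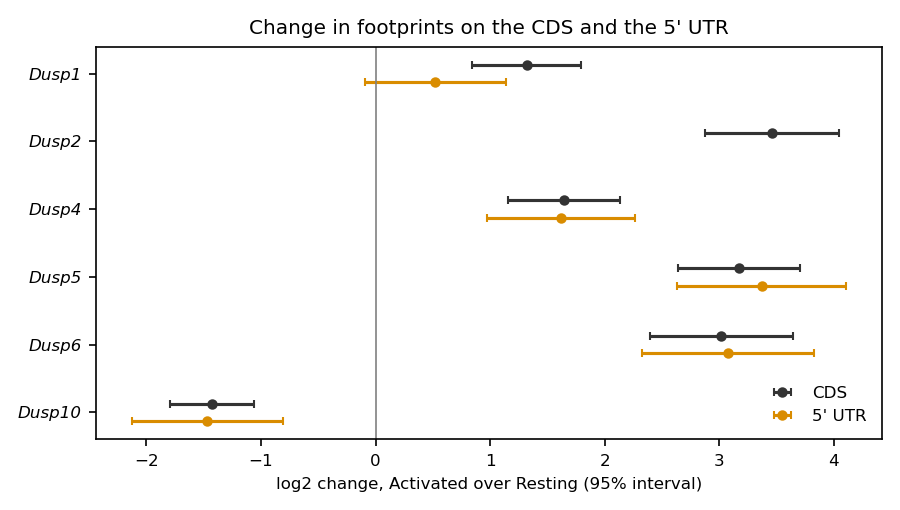
Log2 change, activated over resting (horizontal axis), with its 95% interval from the edgeR fit, for CDS counts and 5' UTR counts of each gene. The CDS change is 3.02 to 3.46 for Dusp2, Dusp5 and Dusp6, 1.32 to 1.64 for Dusp1 and Dusp4 and -1.43 for Dusp10, and no 5' UTR point is drawn for Dusp2, which did not pass the low-count filter there.

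In a search of the 250 bases upstream of each gene's start, RefSeq promoters (GRCm38.p6) were at hand for 5 of the 6 genes, all but Dusp4. Motifs were sought on both strands. The matches shown are those to the 2 motifs of the 6 that were rarest over all promoters. Each was found in 1 of the 5 genes and in neither Dusp2 nor Dusp6, which rose further than Dusp1, and whether the motifs bear on the footprint changes was not tested. The full cAMP response element, TGACGTCA, was found in Dusp1 and in 1.55% of 32851 promoters of the same length. The CArG box bound by serum response factor was found in Dusp5, as 2 matches side by side, and in 1.47% of promoters. Capitals mark the matches.
Dusp1 (minus strand, chr17:26508597-26508626): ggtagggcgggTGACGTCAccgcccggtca
Dusp5 (plus strand, chr19:53529058-53529087): aatacCCATATTTGGCCTTATATGGgcact
The Dusp1 match began 143 bases upstream of the start, and the Dusp5 matches 82 and 72 bases upstream. The E-box CACGTG was found in Dusp1 and Dusp2 (6.02% of promoters), and these did not overlap the matches shown. No match to the AP-1 motif TGANTCA (6.75% of promoters), the κB motif (7.25%) or TATAAA (12.4%) was found in these windows. The 5 windows held 56.4% to 70.4% G and C, against a median of 52.4% over all promoters. Shares over all promoters are thus not matched for base composition, and 5 windows are too few to read an absence from. Dusp6, which rose, and Dusp10, which fell, held none of the 6 motifs.

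Together the 6 genes held 0.312%, 0.184% and 0.173% of CDS counts in activated replicates 2, 3 and 4, against 0.0643%, 0.0663% and 0.0720% in resting replicates 2, 3 and 4. The exact 95% binomial intervals, which cover counting error only, were 0.297% to 0.327%, 0.175% to 0.193% and 0.166% to 0.182% for activated replicates 2, 3 and 4. The highest of the resting libraries, replicate 4, had 0.0653% to 0.0791%. The makeup of these counts also differed. Dusp10 held 2.26%, 5.03% and 5.63% of the family's CDS counts in activated libraries, against 42.7%, 41.9% and 47.7% in resting libraries. Dusp2 held 49.2%, 42.8% and 41.7% in activated and 17.8%, 20.8% and 12.9% in resting libraries. Dusp5 held 29.8 ± 0.693% in activated and 13.3 ± 2.31% in resting libraries (SD, n = 3). Shares of different genes are not set against each other, since counts also follow the length of the coding sequence, which was not at hand.

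**Figure D3:**
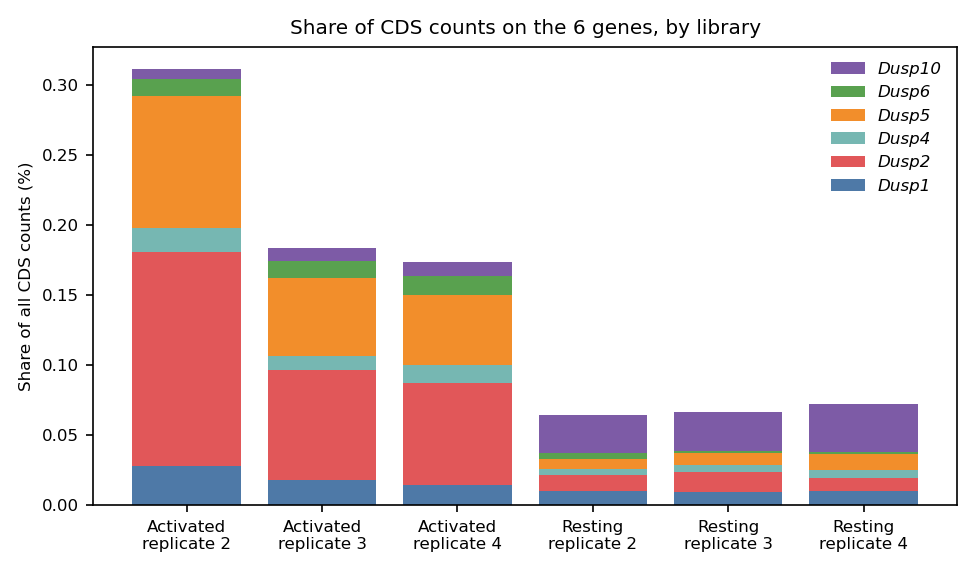
Share of all CDS counts (vertical axis, percent, from 0) held by the 6 genes in each library, as stacked bars with 1 colour per gene. The activated bars reach 0.173% to 0.312% and are mostly Dusp2 and Dusp5, and the resting bars reach 0.0643% to 0.0720% with Dusp10 as the widest band; band widths also follow coding length.

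Ratios of 2 members within a library need no scaling between libraries. Each of the 15 pairs was tested by exact permutation, two-sided, of the 6 libraries in all 20 ways, for which the smallest possible p is 0.1, so that 0.05 cannot be reached. For 10 pairs the groups did not overlap (exact p = 0.1, adjusted 0.15), against 55.2% of all pairs of genes with a count in every library. The 5 pairs with Dusp10 could not overlap, since Dusp10 was lower and the other genes higher in every activated library, and so restate the CPM values. Of the other 10 pairs, 5 did not overlap, a share close to that of all pairs. The ratio of Dusp2 to Dusp10 was 21.8, 8.52 and 7.41 in activated replicates 2, 3 and 4, against 0.417, 0.497 and 0.270 in resting replicates 2, 3 and 4.

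Among the 5 genes that rose, the ratios of Dusp1 or Dusp4 to Dusp2 or Dusp5 were lower in every activated than in every resting library. The ratio of Dusp1 to Dusp2 was 0.180, 0.226 and 0.199 in activated and 0.880, 0.692 and 1.05 in resting libraries. The ratio of Dusp4 to Dusp5 was 0.181, 0.186 and 0.259 in activated and 0.645, 0.560 and 0.552 in resting libraries. Both had an exact p of 0.1 (adjusted 0.15). Dusp2 to Dusp5 gave 1.64, 1.42 and 1.44 in activated and 1.61, 1.56 and 0.821 in resting libraries, which overlapped (exact p = 0.8), with a difference of 0.23 on the log2 scale beside SDs of 0.11 in activated and 0.55 in resting libraries. Dusp5 to Dusp6 differed by 0.04 (exact p = 1), with SDs of 0.51 in activated and 1.19 in resting libraries, so the resting spread was much wider than the difference.

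Counts in the 5' UTR came from records that do not enter the CDS counts. Of the 6 genes, 5 passed the low-count filter there, and 3 were called higher and 1 lower. Over the 2200 genes tested, 22.2% were called higher and 19.8% lower. Dusp5 and Dusp6, both called higher, passed that filter only through their activated libraries, as Dusp6 also did in the CDS. Dusp10, called lower, passed the 5' UTR filter only through its resting libraries. Dusp5 had 144, 131 and 117 counts in activated replicates 2, 3 and 4, against 4, 13 and 10 in resting replicates 2, 3 and 4 (log2 change 3.37, SE 0.35, edgeR adjusted p = 3.87e-06). Dusp6 had 52, 77 and 116 against 7, 9 and 3 (log2 change 3.08, SE 0.35, edgeR adjusted p = 1.17e-05). Neither gene's groups overlapped.

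Dusp4 had 43, 40 and 62 counts in the 5' UTR in activated and 9, 11 and 12 in resting libraries (log2 change 1.62, SE 0.30, edgeR adjusted p = 0.000660). Dusp10 had 19, 14 and 18 in activated and 22, 44 and 33 in resting libraries (log2 change -1.47, SE 0.31, edgeR adjusted p = 0.00155). For these 4 genes the 5' UTR and CDS changes lay close together in the main fits, the widest gap being 0.20 on the log2 scale for Dusp5. For Dusp10 this depended on Activated replicate 2, without which the changes were -1.73 in the 5' UTR and -1.31 in the CDS. It also depended on scaling each region by its own factors. With both regions on 1 scaling, the 5' UTR change relative to the CDS was 0.49 for Dusp5, 0.30 for Dusp6, 0.25 for Dusp4 and 0.23 for Dusp10, none of them called. Dusp2 was not tested, at 13, 14 and 11 counts in activated and 0, 2 and 2 counts in resting libraries.

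Dusp1 was the member whose 5' UTR change did not pass the test. It had 31, 77 and 89 counts there in activated replicates 2, 3 and 4, against 19, 30 and 42 in resting replicates 2, 3 and 4. The log2 change was 0.52 (SE 0.29, 95% interval -0.09 to 1.14, edgeR adjusted p = 0.163). Activated replicate 2, which has the smallest count of the 3, decided the call: without it the change was 0.75 (edgeR adjusted p = 0.0235), and over the 13 alternatives the adjusted p ran from 0.0235 to 0.457.

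Set against its own CDS counts, no gene of the 6 was called for a change in its 5' UTR count. The test called 0.379% of 5282 genes, and 503 genes had an unadjusted p under 0.05. Dusp1 came nearest, with a log2 change of the ratio of -0.75 (SE 0.37, unadjusted p = 0.0456, edgeR adjusted p = 0.514). Its size depended on the library left out: it was -0.30 (SE 0.31, edgeR adjusted p = 0.870) without Activated replicate 2 and -1.13 (edgeR adjusted p = 0.180) without Activated replicate 4. Per 100 CDS counts, its 5' UTR held 22.0, 47.5 and 57.4 in activated replicates 2, 3 and 4, against 43.2, 55.6 and 72.4 in resting replicates 2, 3 and 4, and the groups overlapped. The intervals were wide for the others too: -0.67 to 0.63 for Dusp4, -0.56 to 1.00 for Dusp5, -0.83 to 0.72 for Dusp10, -1.41 to 1.53 for Dusp6 and -2.38 to 1.02 for Dusp2.

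**Figure D4:**
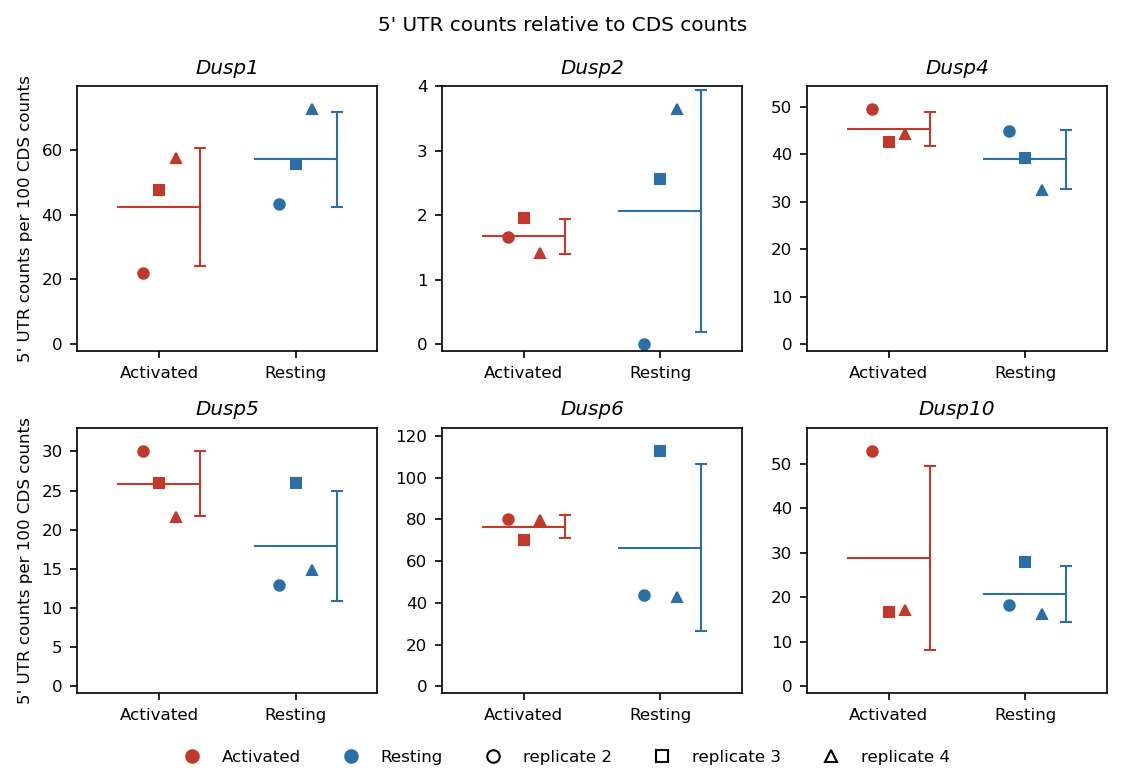
5' UTR counts for every 100 CDS counts (vertical axes from 0, each with its own scale) in the activated and resting libraries of each gene; symbols give the replicate number, horizontal lines the mean and bars 1 SD (n = 3). The groups overlap for all 6 genes, and the values lie between 0 and 3.64 for Dusp2 and between 42.9 and 112.5 for Dusp6.

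Within the family the level of this ratio differed widely by gene in both groups. Per 100 CDS counts, the 5' UTR of Dusp6 held 76.5 ± 5.62 in activated and 66.4 ± 39.95 in resting cells (SD, n = 3), the resting value from 3 to 9 such counts per library. Dusp2 had 1.68 ± 0.271 in activated and 2.07 ± 1.87 in resting cells. Over all genes a library had 13.97 to 20.02. The lengths of these leaders and coding sequences enter the ratio and were not at hand, so the order of genes is not one per base. For Dusp2, records on the border of its CDS varied widely between libraries. Counting in intersection-nonempty mode, which also takes records that lie partly outside the CDS, added 139, 187 and 120 counts in activated and 22, 20 and 5 in resting libraries. Per 100 CDS counts that was 17.7, 26.1 and 15.4 in activated replicates 2, 3 and 4, against 44, 25.6 and 9.09 in resting replicates 2, 3 and 4. Over all genes a library had 8.38 to 11.9, so Dusp2 was above this level in every library but Resting replicate 4, where it was below that library's 11.9. For Dusp4 it was 2.37 ± 2.17 in activated and 2.38 ± 4.12 in resting cells. Which end of the CDS these records covered is not given in the table.

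Counts in the 3' UTR, which entered no test, were few. Of the 5 members with more than 3 such counts in all, 3 (Dusp2, Dusp4 and Dusp5) were higher in every activated than in every resting library, as were 7.45% of 2684 genes tested in the CDS with that many. With counts scaled by CDS library size, since activated libraries were mostly deeper, the same 3 members and 7.15% of those genes were. Dusp4 and Dusp5, with 3 and 1 such counts over the resting libraries, had more than 3 only through the activated libraries. All 3 genes also rose in the CDS, and per 100 CDS counts their groups overlapped, so this is not a separate result.

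Introns of the 6 genes held 2, 2 and 5 counts in all in activated and 2, 3 and 2 in resting libraries, so counts from unspliced RNA were too few to compare.

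For each gene, the gene of the table most like it over the 6 libraries was sought, by the root mean square difference of log2 CPM centred on the gene's own mean. IDs carry no names here. For Dusp1 it was ENSMUSG00000004446.11 (difference 0.0889), with 19, 20 and 21 CDS counts in activated and 6, 7 and 7 in resting libraries. For Dusp2 it was ENSMUSG00000004100.10 (difference 0.159), with 172, 216 and 189 in activated and 13, 21 and 12 in resting libraries. For Dusp10 it was ENSMUSG00000054717.6 (difference 0.103), with 111, 227 and 299 in activated and 288, 437 and 535 in resting libraries. Dusp6 was least closely matched, at a difference of 0.288 from its nearest gene.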

How the data were processed

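Ribosome footprints were measured in 6 libraries. The authors deposited raw counts per gene, 36 columns with 6 per library, and per the file headers these cover the CDS in 2 counting modes, the 5' UTR, the 3' UTR, exons and introns. Per the submitters' processing notes, TopHat2 2.0.13, Bowtie 1.1.1.0, HTSeq and build mm10 were used; strand setting, annotation release and read filters are not stated there, so records of genes overlapping on opposite strands cannot be told apart. Of all records, 65.8% to 79.6% per library did not align uniquely, 11.8% to 14.5% lay in no CDS and at most 0.0985% were ambiguous; these rows were left out of library sizes and tests.

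CDS counts of all genes were fitted with edgeR 4.0.16 in R 4.3.3 (filterByExpr, TMM, estimateDisp, glmQLFit, glmQLFTest, two-sided, group as the only term), adjusted by Benjamini-Hochberg across every tested gene (threshold 0.05). SE is the log2 change over the root of F (95% intervals by the fit's degrees of freedom). The 5' UTR counts were fitted in the same way. For 5' UTR relative to CDS counts, 1 model held a term per library, the region, and the region in activated cells, for genes with at least 5 counts in each region that passed filterByExpr, with TMM factors per region. The fits were tested on simulated data. Coordinates and promoters come from RefSeq tables for GRCm38.p6, the assembly behind mm10, matched by symbol.

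The members and the lists were chosen with earlier results of these data known. All 6 members are named; the gene nearest to each is shown by ID for at most 2 that rose and 2 that fell. The 12 lists of other pathway genes and cell type markers could not be used, because their symbols could not be paired with IDs. Alternatives were RLE, upper quartile and no scaling factors, no filter, a replicate block, DESeq2 1.42.0, limma 3.58.1 with voom, other counting columns, and each library left out. Replicate numbers were not taken to pair libraries, and the labels do not say whether they do. Across genes, the deviations from the group means correlated between libraries of 1 number at 0.13 (replicate 2), 0.07 (replicate 3) and 0.23 (replicate 4). Between libraries of different numbers the correlations were all lower, at -0.16 to 0.01, and the replicate block is given as an alternative.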

Additional observations from a re-analysis of the deposited data

Results flagged for a closer look

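Counts in the 3' UTR, which entered no test, were higher in every activated than in every resting library for 3 genes, as deposited and after scaling by CDS library size, where 7.45% and 7.15% of 2684 genes with more than 3 such counts were. Dusp2 had 22, 17 and 8 counts in activated replicates 2, 3 and 4, against 2, 2 and 1 in resting replicates 2, 3 and 4, or 47 against 5 in all. Dusp5 had 11, 8 and 6 in activated and 1, 0 and 0 in resting libraries, or 25 against 1. Dusp4 had 3, 3 and 5 in activated and 1, 0 and 2 in resting libraries, or 11 against 3. Dusp4 and Dusp5 thus had more than 3 such counts only through their activated libraries. Per 100 CDS counts the groups overlapped for all 3, at 2.07 ± 0.926 in activated and 2.79 ± 1.11 in resting cells for Dusp2 (SD, n = 3), with all genes of a library at 1.39 to 4.29 in activated and 2.22 to 4.46 in resting libraries.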

How the results depend on the processing

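No CDS change of the 6 genes turned direction or lost its call in the 90 values over 15 alternatives; they ran from 0.98 to 1.55 for Dusp1, 3.06 to 3.69 for Dusp2, 1.31 to 1.84 for Dusp4, 2.83 to 3.37 for Dusp5, 2.68 to 3.62 for Dusp6 and -1.77 to -1.31 for Dusp10. The number of all genes called lower in the CDS was 1449, against 2560 with library totals alone and 822 with DESeq2. With totals alone the split of calls was 1099 higher and 2560 lower, against 1633 and 1449. In the 5' UTR, DESeq2 calls numbered 577 with 218 lower, where edgeR had 925 with 436 lower. For the ratio of 5' UTR to CDS counts, edgeR called 20 genes, 7 higher and 13 lower. With both regions on 1 scaling it called 5 (4 higher and 1 lower), and with any 1 library removed it called between 2 and 37 (between 1 and 19 higher, between 1 and 18 lower); no gene of the 6 was called in any of these fits. With the replicate number as a block, 3446 genes were called in the CDS against 3082, and 12 higher for the ratio against 7; no call of the 6 genes changed. Libraries with the same number correlated at 0.07 to 0.23 in their deviations, and others at -0.16 to 0.01. The cause of these differences was not tested. Depth limits Dusp6, with 7 to 16 CDS counts per resting library, and Dusp2 in the 5' UTR.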
